A study of Danio rerio with 11 samples.

Results

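The genes described here encode the metalloproteases that cut the extracellular matrix and the cell surface, together with their tissue inhibitors, in single zebrafish embryos with and without an rfx4 mutant phenotype. They were taken by symbol, as every row of the deposited tables beginning with adamts, adam or mmp and a number, pappa or timp, and this gave 21 genes of 14473. They comprise 4 ADAMTS genes, 6 ADAM genes, 7 MMP genes, 2 pappalysin genes and 2 TIMP genes, and 0 ADAMTS-like genes. All 21 passed the filter on low counts. The genes adamts3 and pappaa are set against the rest because earlier results of these embryos had drawn attention to them, so their p-values describe these embryos and are not independent evidence.

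Metalloproteases of these families hold a zinc ion in the active site. Many, though not all, are made as inactive precursors whose prodomain must be removed. MMPs and ADAMTS proteases are mostly secreted and cut collagens, proteoglycans and other matrix proteins, whereas ADAM proteases sit in the membrane and release the outer parts of receptors and ligands. Pappalysins cut binding proteins of insulin-like growth factors (IGF) and so free the ligand. TIMPs bind the active site and block it. In the early embryo these enzymes are known for the remodelling of matrix around moving cells, the notochord, vessels and nerves.

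The embryos came, per the series design, from an incross of carriers of the allele rfx4 uw8013, and their appearance decided the group. There were 6 mutants, numbered 1, 3, 4, 5, 6 and 7, and 5 siblings, numbered 2, 3, 4, 7 and 8. Each library holds the RNA of 1 whole embryo, raised at 29 °C to about 25 hours after fertilisation (hpf) with no treatment. The genotype label reads rfx4 mutant for the first group and control for the second. A sibling can be wild type or heterozygous, which the labels do not tell. The growth protocol instead names carriers of zic2 mutations as the parents, so which mutation the embryos carried rests on the series design and genotype labels. Because whole embryos were used, fewer cells of a type and less RNA per cell cannot be told apart.

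Total counts ran from 16238368 to 21104811 per embryo. Across the 12301 genes tested, 3 libraries stood apart. On the first principal component of log2 CPM (counts scaled to a common library size), which held 22% of the variance, mutant 7 and sibling 3 lay at −30.3 and −32.4 and the other 9 embryos between −1.14 and 26. On the second, with 17%, mutant 6 lay at −37.8 and the next lowest embryo at −13.7. Most results that rest on these embryos are given with and without them.

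The levels of the 21 genes covered a wide range. They are given here in the deposited TPM, a measure of transcript abundance that is scaled for gene length and so allows genes to be set side by side. Highest by mean was mmp2, the gene of gelatinase A, at 73.0 ± 18.1 TPM in siblings (SD, n = 5). It was followed in siblings by adam10a at 67.4 ± 7.0 TPM and adam10b at 51.6 ± 6.9 TPM, whose products release the outer domain of Notch receptors and other surface proteins. By sibling median adam10a, at 70.7 TPM, lay above mmp2, at 69.6 TPM, so these 2 genes did not differ beyond their spread. The lowest gene was pappaa at 0.70 ± 0.14 TPM. By mean TPM over the 11 embryos, mmp2 stood above 89.2% of all genes in the table and pappaa above 19.6%. That mean of mmp2 includes mutant 6, at 236 TPM. The ADAM and MMP families made up most of the summed level, with 174 ± 14.8 TPM and 164 ± 28.9 TPM in siblings, against 17.4 ± 2.5 TPM for the ADAMTS genes, 15.7 ± 1.6 TPM for the TIMP genes and 2.11 ± 0.61 TPM for the pappalysins.

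**Figure D1:**
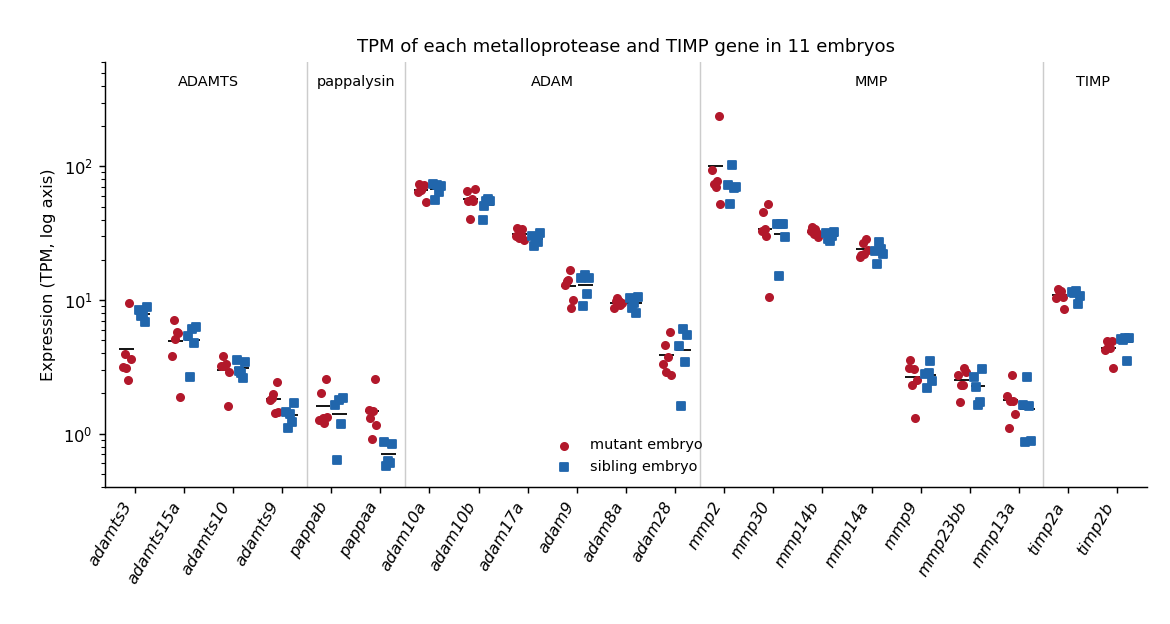
Deposited TPM on a log axis for each of the 21 genes, grouped by family. Circles are the 6 mutants, squares the 5 siblings and short lines the group means; adamts3 is lower in 5 mutants than in the siblings, with mutant 6 above them at 9.50 TPM, and mmp2 of mutant 6 stands alone at 236 TPM.

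Fitted values were higher in mutants for 11 of the 21 genes and lower for 10, with a median log2 fold change of 0.03, beside 0.0009 over all 12301 genes. The edgeR quasi-likelihood test called 0 of the 21 genes at an adjusted p under 0.05, and it called 0 genes of the whole table (0%). At an unadjusted p under 0.05 there were 3 of the 21 genes, pappaa and adamts9 higher and adamts3 lower in mutants, where 6.85% of all genes lay. DESeq2, run on the same 12301 genes, called 1 of the 21, pappaa, and 0.358% of all genes. Limma-voom called 0 of the 21 and 0.0163% of all genes. With sample weights it called 1 of the 21, adamts3 (limma adjusted p = 0.00717), and 0.26% of all genes. In 17 of the 21 genes the fitted log2 fold change was within 0.25 of 0, as it was in 86.9% of all genes.

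**Figure D2:**
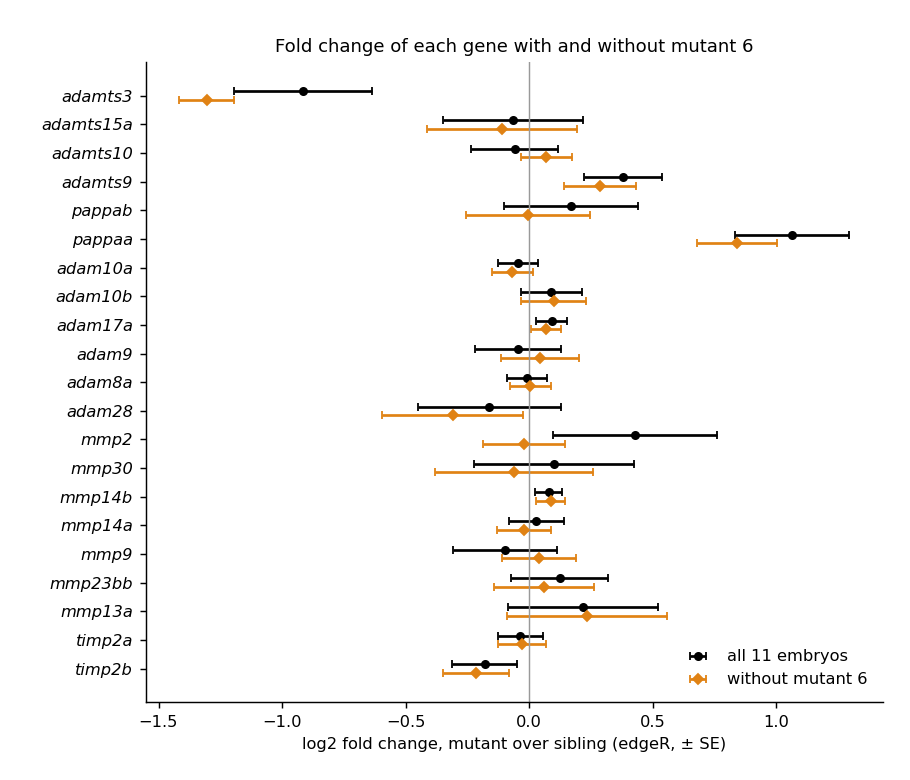
Log2 fold change of mutants over siblings by edgeR with its standard error, for all 11 embryos (circles) and without mutant 6 (diamonds). Without mutant 6, adamts3 goes from −0.91 to −1.31 and mmp2 from 0.43 to −0.02, while pappaa stays above 0.

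Among the ADAMTS genes, adamts3 was lower in 5 of the 6 mutants than in any sibling. Its product is a secreted protease that removes the N-terminal propeptide of fibrillar procollagens, and in mouse it activates Vegfc and cuts the neuronal matrix protein reelin. Expression was 7.78, 9.60, 8.38, 6.31, 23.9 and 9.28 CPM in mutants 1, 3, 4, 5, 6 and 7. In siblings 2, 3, 4, 7 and 8 it was 21.1, 19.98, 20.2, 18.5 and 22.6 CPM. Mutant 6 was the highest of all 11 embryos and the other mutants lay together below all siblings, so the groups overlapped through 1 embryo. These values rest on 107 to 179 counts in the 5 low mutants, 399 in mutant 6 and 333 to 423 in siblings. Mutants averaged 10.9 ± 6.5 CPM (SD, n = 6) and siblings 20.5 ± 1.5 CPM (SD, n = 5), with a coefficient of variation of 59.5% against 7.25%.

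Over all 11 embryos the log2 fold change of adamts3 was −0.91 ± 0.28 (SE), a 1.89-fold lower level, with an edgeR adjusted p of 0.592. The exact two-sided permutation test over the 462 assignments of the 11 embryos to groups gave p = 0.0152. Without mutant 6 the log2 fold change was −1.31 ± 0.11 (edgeR adjusted p = 2e-04), where edgeR called 0.196% of all genes. The groups then did not overlap, as in 0.919% of all genes with the mutants lower. The 5 other mutants had a mean of 8.27 ± 1.31 CPM, a 2.48-fold lower level than in siblings. Each embryo was left out in turn. Removing mutant 6, the highest embryo of the lower group, had to widen the difference, so this is no independent support. Leaving out both mutant 7 and sibling 3 gave −0.88 ± 0.32 (edgeR adjusted p = 0.526).

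The other 3 ADAMTS genes did not follow adamts3. The gene adamts9, whose mammalian product cuts the proteoglycan versican, averaged 5.37 ± 1.1 CPM in the mutants and 4.12 ± 0.58 CPM in the siblings. Mutants ran from 4.13 to 7.06 CPM and siblings from 3.40 to 4.99 CPM, so the groups overlapped. Its log2 fold change was 0.38 ± 0.16 (SE, unadjusted p = 0.0314, edgeR adjusted p = 0.707), and 0.29 ± 0.15 without mutant 6. For adamts10, whose human product binds fibrillin, the values were 8.03 ± 1.96 CPM and 8.37 ± 0.89 CPM, with mutant 6 lowest of all embryos at 4.25 CPM and the other mutants between 7.87 and 9.81 CPM. Its log2 fold change of −0.06 ± 0.18 became 0.07 ± 0.10 without mutant 6. For adamts15a, an aggrecanase-type protease, the values were 9.38 ± 3.38 CPM and 9.82 ± 2.73 CPM, and the log2 fold change was −0.06 ± 0.28. In siblings adamts3 was the highest ADAMTS gene at 7.91 ± 0.78 TPM, ahead of adamts15a at 5.02 ± 1.45 TPM, adamts10 at 3.07 ± 0.41 TPM and adamts9 at 1.37 ± 0.22 TPM. In mutants adamts15a, at 4.89 ± 1.82 TPM, and adamts3, at 4.30 ± 2.59 TPM, did not differ beyond their spread. By embryo, adamts15a was above adamts3 in mutants 1, 3, 4 and 5. It was below adamts3 in mutant 6, at 5.68 against 9.50 TPM, and in mutant 7, at 1.88 against 3.59 TPM. The counts analysed here held no row named adamts2 or adamts14, the close paralogs of adamts3.

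**Figure D3:**
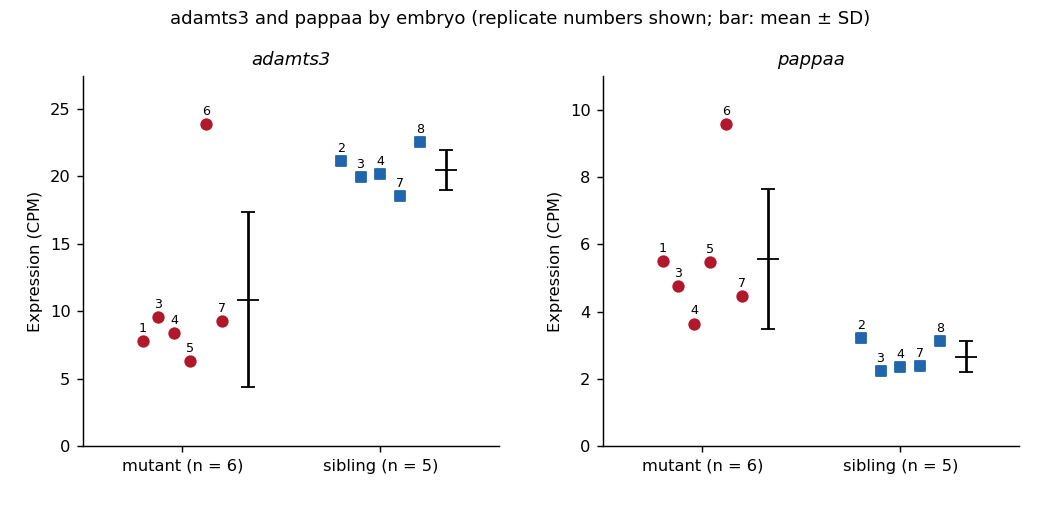
Expression of adamts3 (left) and pappaa (right) in CPM, 1 point per embryo with its replicate number, and the mean ± SD of each group beside it. Mutant 6 has the highest value of both genes, 23.9 CPM and 9.57 CPM, and for pappaa all 6 mutants lie above all 5 siblings.

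The pappalysin gene pappaa was higher in all 6 mutants than in all 5 siblings. Its product is a secreted protease that cuts IGF-binding proteins. Expression was 5.50, 4.77, 3.65, 5.49, 9.57 and 4.45 CPM in mutants 1, 3, 4, 5, 6 and 7, and 3.22, 2.22, 2.36, 2.39 and 3.12 CPM in siblings 2, 3, 4, 7 and 8. The groups did not overlap, with mutant 4 the lowest mutant and sibling 2 the highest sibling, and 0.455% of all genes separated in that way with the mutants higher. This is a gene of low level, with 57 to 160 counts in mutants and 40 to 60 in siblings, and the raw counts of mutant 4 and sibling 2 crossed before scaling for library size. Mutants averaged 5.57 ± 2.08 CPM (SD, n = 6) and siblings 2.66 ± 0.47 CPM (SD, n = 5), and the fitted difference was 2.09-fold. On the log2 scale this was 1.06 ± 0.23 (SE), and the adjusted p was 0.254 by edgeR and 0.00703 by DESeq2. The exact two-sided permutation p was 0.00433 over the 462 assignments. Mutant 6 was again the highest embryo, and without it the difference was 0.84 ± 0.16 with an edgeR adjusted p of 0.0836 and a DESeq2 adjusted p of 0.00213. DESeq2 called 0.645% of all genes in those 10 embryos. On deposited TPM with a pseudocount of 1 the difference was 0.53 ± 0.15, since a pseudocount shrinks the change of a gene with values near 1.

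Its paralog pappab did not separate the groups. It was at 4.28, 6.70, 4.73, 4.01, 8.73 and 4.67 CPM in mutants 1, 3, 4, 5, 6 and 7, and at 5.59, 2.27, 6.20, 4.29 and 6.29 CPM in siblings 2, 3, 4, 7 and 8. Mutant 6 was highest and sibling 3 lowest, and the remaining 9 embryos of both groups mixed between them. The log2 fold change was 0.17 ± 0.27 (edgeR adjusted p = 0.930), and −0.01 ± 0.25 without mutant 6. Without mutant 7 and sibling 3 it was 0.03. In siblings pappab, at 1.41 ± 0.51 TPM, was above pappaa, at 0.70 ± 0.14 TPM, while in mutants the values were 1.61 ± 0.56 and 1.49 ± 0.57 TPM. The difference between the responses of pappaa and pappab was not tested. Another pappalysin gene, pappa2, had no row of that name in the counts analysed here.

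The MMP genes had 6 higher and 1 lower fitted value. By edgeR, 0 of the 7 had an unadjusted p under 0.05, beside 6.85% of all genes. The gelatinase gene mmp2 was at 180, 141, 147, 150, 461 and 106 CPM in mutants 1, 3, 4, 5, 6 and 7. In siblings 2, 3, 4, 7 and 8 it was at 141, 108, 205, 143 and 137 CPM. Mutant 6 had 3.19 times the mean of the other mutants, 145 ± 26.5 CPM, and those lay among the siblings, at 147 ± 35.7 CPM. Its log2 fold change was 0.43 ± 0.33 (edgeR adjusted p = 0.828) over all embryos and −0.02 ± 0.17 without mutant 6. Since mmp2 is the highest gene of the family, the summed TPM of the 7 MMP genes was 355 in mutant 6 and 120 to 201 in the other 10 embryos.

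The other gelatinase gene, mmp9, went the other way in the same embryo. It was at 2.39 CPM in mutant 6, the lowest of the 11, at 4.54 to 6.33 CPM in the other mutants and at 4.25 to 6.85 CPM in siblings. Its log2 fold change was −0.10 ± 0.21, and 0.04 ± 0.15 without mutant 6. The collagenase gene mmp13a was the lowest MMP gene by TPM in both groups. It averaged 1.90 ± 0.58 CPM in the mutants and 1.64 ± 0.75 CPM in the siblings, with 16 to 49 counts per embryo and a log2 fold change of 0.22 ± 0.30. Leaving out 1 embryo moved that value between 0.06, without mutant 5, and 0.49, without sibling 4. The marker list of leukocytes, cells in which mmp9 and mmp13a are known to be expressed, summed to between 183 and 256 CPM in mutants and between 183 and 286 CPM in siblings over 14 of its 16 genes, with mutant 6 at 218 CPM. Fitted values were higher for 3 of those 14 genes and lower for 11 (median −0.19), and 0 of them was at 0 counts in every embryo. The part of leukocytes in these values was not tested.

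The products of the membrane-type genes mmp14a and mmp14b activate the precursor of gelatinase A. Of these, mmp14b was among the steadiest of the set. Its coefficient of variation was 4.72% in mutants and 5.67% in siblings, against 14.5% and 13.7% for mmp14a. The values for mmp14b were 93.5 ± 4.4 CPM in mutants against 88.5 ± 5.0 CPM in siblings, a log2 fold change of 0.08 ± 0.06 (edgeR adjusted p = 0.810). For mmp14a they were 55.7 ± 8.1 CPM and 54.6 ± 7.5 CPM, a log2 fold change of 0.03 ± 0.11. In mutant 6, where mmp2 was highest, mmp14a was at 65.2 CPM and mmp14b at 90.8 CPM, both within the range of the other embryos. The membrane-bound mmp23bb was at 2.75 ± 0.55 CPM and 2.52 ± 0.62 CPM, with a log2 fold change of 0.12 ± 0.20, which ran from 0.03 without sibling 4 to 0.25 without sibling 8. By TPM in siblings the order was mmp2, mmp30, mmp14b, mmp14a, mmp9, mmp23bb and mmp13a, at 73.0, 31.1, 30.0, 23.0, 2.76, 2.25 and 1.52 TPM. Of the neighbours in this order, mmp30 and mmp14b, mmp9 and mmp23bb, and mmp23bb and mmp13a did not differ beyond their spread.

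The TIMP genes, whose Timp2 products both inhibit MMPs and help Mmp14 to activate gelatinase A, had slightly lower fitted values. The values for timp2a were 22.3 ± 2.7 CPM in mutants against 22.8 ± 1.6 CPM in siblings, a log2 fold change of −0.04 ± 0.09. For timp2b they were 8.39 ± 1.23 CPM and 9.50 ± 1.27 CPM, a log2 fold change of −0.18 ± 0.13 (edgeR adjusted p = 0.810). Mutant 7 was the lowest embryo for both, at 17.9 CPM and 6.13 CPM, and mutant 6 lay among the other embryos for both, at 21.5 CPM and 9.39 CPM. Without mutant 7 the log2 fold change of timp2b was −0.10, and without mutant 7 and sibling 3 it was −0.08. For timp2a the same values were 0.02 and 0.05.

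The ADAM genes showed small differences. All 6 fitted log2 fold changes lay between −0.16 and 0.09, with 2 higher and 4 lower. By edgeR, 0 of the 6 had an unadjusted p under 0.05, beside 6.85% of all genes. The gene adam10a averaged 199.6 ± 19.6 CPM in the mutants and 206 ± 17.6 CPM in the siblings, a log2 fold change of −0.04 ± 0.08, and its paralog adam10b averaged 61.8 ± 9.7 and 58.1 ± 8.7 CPM, a log2 fold change of 0.09 ± 0.12. The gene adam17a, which encodes the enzyme that releases TNF and ligands of the EGF receptor, was at 114 ± 7.2 and 107 ± 6.8 CPM, 0.09 ± 0.06. For adam8a the values were 20.8 ± 1.7 and 20.9 ± 1.8 CPM, −0.01 ± 0.08. These are all membrane sheddases with 331 counts or more in each library, and for these 4 genes the spread within each group was under 20% of the mean. For adam9 the log2 fold change was −0.04 ± 0.17, and for adam28, the lowest of the family at 4.23 ± 1.77 TPM in siblings, it was −0.16 ± 0.29 with 34 to 101 counts per embryo.

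**Figure D4:**
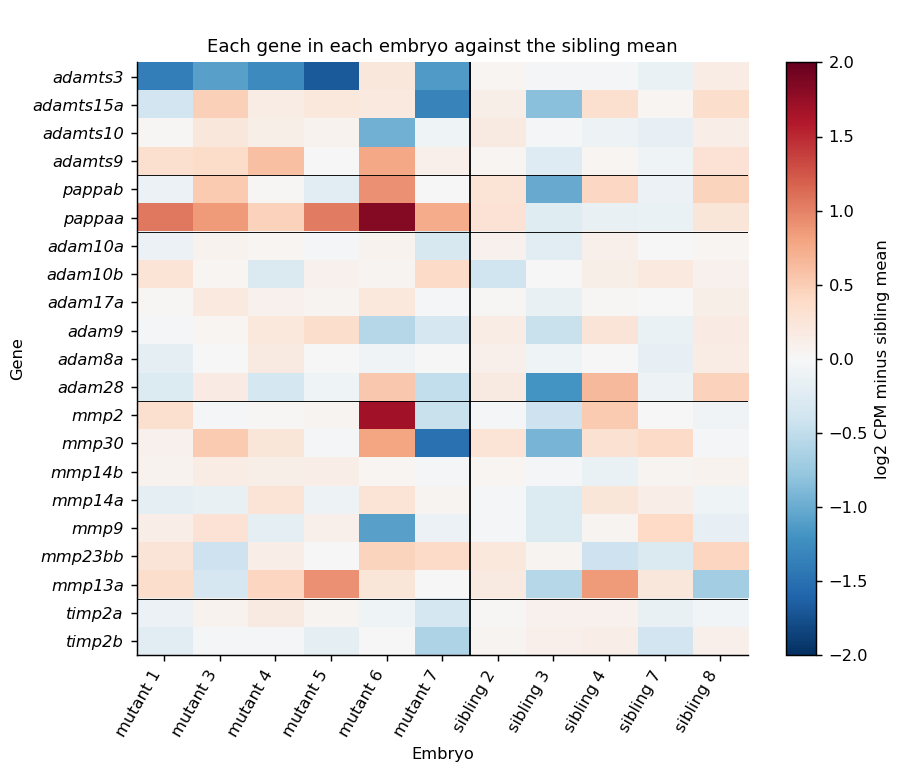
Log2 CPM of each gene in each embryo minus the mean of the 5 siblings, with the mutants left of the line and families separated by thin lines. The row of adamts3 is blue in 5 mutants, down to −1.69 in mutant 5, the row of pappaa is red in all 6, and the columns of mutant 6, mutant 7 and sibling 3 depart from the rest in several other genes.

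Across the set, the widest differences between single embryos followed 3 libraries. Mutant 6 was the highest of the 11 embryos in 8 of the 21 genes and the lowest in 3, while over all genes it was highest in 16.5% and lowest in 18.1%. The 8 genes were adamts3, adamts9, pappaa, pappab, mmp2, mmp23bb, mmp30 and adam17a, and the 3 were adamts10, adam9 and mmp9. In mutant 6, pappaa was at 2.01 times, pappab at 1.79 times, adam28 at 1.67 times and adamts10 at 0.48 times the mean of the other mutants. The summed CPM of the 11 floor plate markers was highest in mutant 6, at 548 CPM, against 384 to 434 CPM in the other mutants and 447 to 479 CPM in siblings. Sums of marker CPM weigh the genes of highest level most. In mutant 6 sulf1 was at 172 CPM and shha at 53.9 CPM, above sibling means of 141 and 51.4 CPM. The markers called by DESeq2, ntn1b, foxa2 and nkx2.9, were at 10.04, 15.9 and 8.07 CPM, below sibling means of 10.7, 22.4 and 11.7 CPM. The other floor plate markers are not given by embryo, so these values do not tell which markers made the sum high. The list of endothelial and blood markers holds globin genes such as hbae3 beside endothelial genes. The summed CPM of 11 of its 12 genes was lowest in mutant 6, at 611 CPM, against 1108 to 2109 CPM in the other embryos. This sum does not tell the endothelial from the blood genes. In mutant 6 the listed endothelial genes etv2 and egfl7 were at 29.5 and 16.3 CPM, above sibling means of 23.5 and 12.75 CPM. They are the 2 genes of the list with an unadjusted p under 0.05 by edgeR, where 6.85% of all genes lay. The others of the list are not given by embryo. The part of these cell types in the values of mutant 6 was not tested.

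Mutant 7 and sibling 3 formed the other departure, 1 in each group. Both lay below all 9 other embryos in 6 of the 21 genes, as they did in 11.1% of all genes, and both lay above them in 0 of the 21 (6.18% of all genes). The 6 genes were mmp30, adamts15a, adam28, mmp2, adam10a and adam17a. For mmp30, an MMP gene, mutant 7 and sibling 3 were at 12.1 and 17.7 CPM and the other 9 embryos at 32.9 to 58.3 CPM. For adamts15a the values were 3.69 and 5.29 CPM against 7.23 to 13.2 CPM, and for adam28 they were 2.66 and 1.61 CPM against 2.94 to 5.96 CPM. Since each group holds 1 of the pair, both group means were lowered. For mmp30, adamts15a, adam28 and adam10a the standard error was larger with the pair than without it. For adam17a it hardly changed, and for mmp2 it was not larger. Without both, the log2 fold changes by edgeR were 0.12 ± 0.16 for mmp30, −0.05 ± 0.15 for adamts15a and −0.29 ± 0.22 for adam28, beside 0.10 ± 0.32, −0.06 ± 0.28 and −0.16 ± 0.29 over all 11 embryos. For mmp2, adam10a and adam17a the values without both were 0.47 ± 0.34, −0.04 ± 0.05 and 0.08 ± 0.06. Over all 11 embryos these were 0.43 ± 0.33, −0.04 ± 0.08 and 0.09 ± 0.06. The summed markers of the hatching gland, a gland that secretes other metalloproteases, were lowest in the same embryos, at 3503 CPM in mutant 7 and 2426 CPM in sibling 3 against 4495 to 6760 CPM in the others, over 7 of the 12 listed genes. The leukocyte markers were lowest there as well, at 183 CPM in each against 211 to 286 CPM. Other marker sums of this pair were not low. The notochord sum was at 2711 CPM in mutant 7 and 2614 CPM in sibling 3, against 2239 to 2623 CPM in the others. For the floor plate, epidermis, crest and mesenchyme, and endothelial and blood lists, both embryos lay within the range of the others. The part of any cell type in the low values was not tested.

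The genes that make, cut or meet the products of these proteases were counted from fixed lists, which were written with earlier results known. In the list of procollagen processing, which holds fibrillar procollagens and the enzymes that modify and cut them, 24 of 28 tested genes had higher fitted values in mutants and 4 lower, with a median log2 fold change of 0.19. Of all 12301 genes tested, 6175 had higher and 6126 lower fitted values. At an unadjusted p under 0.05 there were 7 higher and 0 lower, where 3.79% of all genes lay higher and 3.06% lower. DESeq2 called 2 of them higher, as it did 0.163% of all genes, and edgeR called 0. The 2 were col5a3a, a fibrillar collagen chain, at 111 ± 9.6 CPM in mutants against 78.6 ± 10.7 CPM in siblings (log2 fold change 0.49 ± 0.09 SE, DESeq2 adjusted p = 0.00141), and plod2, a lysyl hydroxylase of collagen, at 82.8 ± 8.8 against 63.8 ± 4.4 CPM (0.38 ± 0.08, DESeq2 adjusted p = 0.00662). The lysyl oxidase gene loxl3b had a log2 fold change of 0.53 ± 0.14 and the collagen chaperone gene serpinh1a one of 0.19 ± 0.06, both with an edgeR adjusted p above 0.4. The genes of cutting enzymes and their enhancers were mixed. Of these, bmp1a (−0.02), bmp1b (−0.18) and pcolcea (−0.15) were among the 4 lower genes, and tll1 (0.35) and pcolce2b (0.17) were higher.

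Among basement membrane and fibrillin genes 16 of 17 had higher and 1 a lower fitted value, with a median of 0.10. Of all 12301 genes tested, 6175 were higher and 6126 lower. At an unadjusted p under 0.05 there were 4, all higher, where 3.79% of all genes lay higher. DESeq2 called 1 gene of this list, as it did 0.163% of all genes higher. This was efemp2a, which encodes an elastic fibre protein of the fibulin family, at 84.2 ± 14.3 CPM in mutants against 59.8 ± 4.1 CPM in siblings (0.49 ± 0.11, DESeq2 adjusted p = 0.0162). The log2 fold change of its paralog efemp2b was 0.33 ± 0.12, with the laminin gene lama2 at 0.64 ± 0.22 and the nidogen gene nid1b at 0.19 ± 0.08. The mean of lama2 rested in part on mutant 6, at 101 CPM against a mutant mean of 68.7 CPM. Leaving out 1 embryo gave log2 fold changes of lama2 from 0.50 to 0.76. The list named for aggrecanase substrates had 5 of 6 tested genes higher (median 0.18). Of the 6, vcanb (0.183) and bcan (−0.285) encode proteoglycans, and the others encode link proteins and hyaluronan synthases. The 1 gene of this list with an unadjusted p under 0.05 was the hyaluronan synthase gene has2, at 7.43 ± 1.19 against 5.26 ± 0.30 CPM (0.50 ± 0.13, DESeq2 adjusted p = 0.0831).

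**Figure D5:**
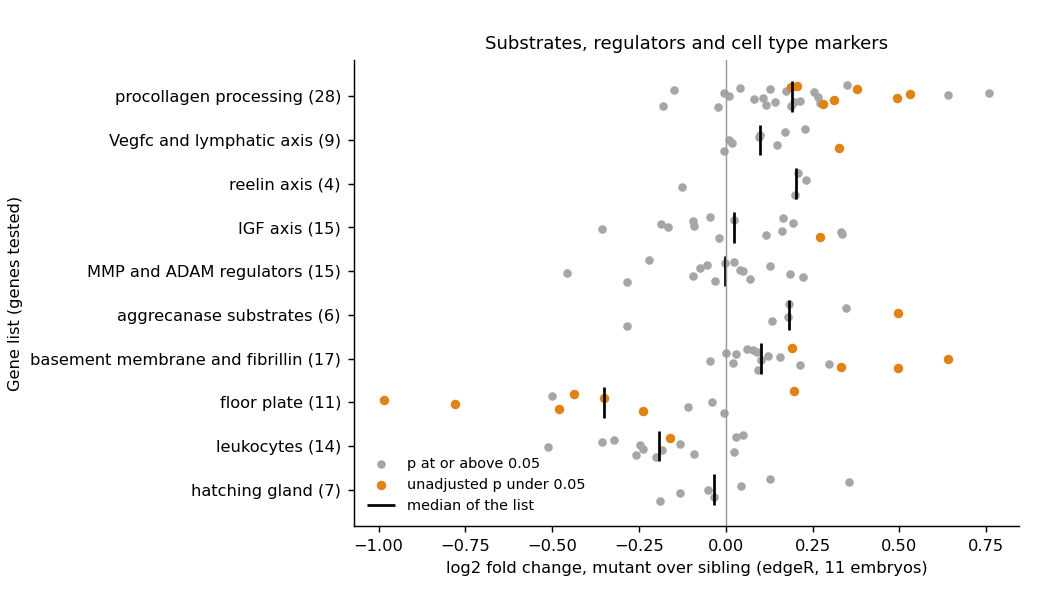
Log2 fold change of mutants over siblings by edgeR over 11 embryos for each tested gene of 10 lists, with the number of genes tested beside each name. Orange points have an unadjusted p under 0.05 and black lines are list medians, from 0.20 in the reelin list to −0.35 in the floor plate list.

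The lists of the Vegfc, reelin and IGF pathways and of protease regulators showed 0 genes called by edgeR or DESeq2. Over all genes these tests called 0% and 0.358%, and 6175 of the 12301 fitted values were higher. An unadjusted p under 0.05 by edgeR was found in 6.85% of all genes. In the Vegfc list 8 of 9 tested genes had higher and 1 a lower fitted value (median 0.10), and the VEGF receptor gene flt1 was the 1 gene with an unadjusted p under 0.05, at 0.33 ± 0.15 (edgeR adjusted p = 0.721). In the reelin list 3 of 4 were higher (median 0.20), with reln at 0.23 ± 0.15 and its receptor gene vldlr at 0.21 ± 0.11. In the IGF list 8 of 15 tested genes were higher and 7 lower (median 0.02), and the receptor gene igf1ra, at 36.2 ± 4.1 against 30.0 ± 5.7 CPM (0.27 ± 0.12, edgeR adjusted p = 0.721), was the 1 gene with an unadjusted p under 0.05. In the list of regulators of MMPs and ADAMs, with convertases that remove prodomains, 7 of 15 were higher and 8 lower (median −0.001). The tetraspanin gene tspan5a, whose mammalian product guides Adam10, was at −0.22 ± 0.13, and the convertase gene pcsk7 at 0.18 ± 0.12.

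Of the marker lists, the floor plate list held the most called genes. Of its 11 genes 10 had lower fitted values (median −0.35), and DESeq2 called 3 lower, where it called 0.195% of all genes lower, and edgeR called 0. The Netrin gene ntn1b averaged 5.38 ± 2.33 CPM in the mutants and 10.7 ± 0.77 CPM in the siblings, a log2 fold change of −0.99 ± 0.22 (DESeq2 adjusted p = 0.00622). In mutant 6 ntn1b was at 10.04 CPM, within 1 SD of the sibling mean. Without that embryo its log2 fold change was −1.26 ± 0.11 (edgeR adjusted p = 2e-04), beside −1.31 ± 0.11 for adamts3. In that fit edgeR called 0.196% of all genes. Mutant 6 lay above the mutant mean of both genes, so leaving it out had to widen both differences. The likeness of the 2 values is therefore no independent support. The other called genes, nkx2.9 and foxa2, had log2 fold changes of −0.78 ± 0.11 and −0.48 ± 0.09, and in mutant 6 they were at 8.07 and 15.9 CPM, below the sibling means of 11.7 and 22.4 CPM. The log2 fold change of the sulfatase gene sulf1 was 0.20 ± 0.05. The part of the floor plate in the adamts3 values was not tested.

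The remaining marker lists are given by counts of fitted values and by log2 fold changes. Of all 12301 genes tested, 6175 were higher and 6126 lower. In the notochord list 6 of 9 tested genes were higher and 3 lower (median 0.10), and DESeq2 called col8a1a, at 206 ± 12.2 against 141 ± 20.8 CPM (0.54 ± 0.09). DESeq2 called 0.163% of all genes higher. In this list shha, which is counted in the floor plate list as well, was at −0.35 ± 0.11, and the homeobox gene flh at 0.51 ± 0.19. In the crest and mesenchyme list 6 of 10 were higher (median 0.06), with snai1b at 0.52 ± 0.15 and snai2 at 0.14 ± 0.06. In the endothelial and blood list 9 of 11 were higher (median 0.06), with etv2 at 0.23 ± 0.08 and egfl7 at 0.25 ± 0.10. In the epidermis list 10 of 11 were lower (median −0.07), with the keratin genes krt8 at −0.19 ± 0.10 and krt18 at −0.15 ± 0.08. In the hatching gland list 3 of 7 were higher (median −0.03), with the hatching enzyme gene he2 at 0.36 ± 0.17 and agr2 at −0.19 ± 0.12. In the leukocyte list nccrp1 was the 1 gene with an unadjusted p under 0.05 by edgeR, at −0.16 ± 0.06, where 6.85% of all genes lay. By DESeq2, 0 genes of these last 5 lists were called.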

How the data were processed

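The authors deposited estimated counts per gene as whole numbers, and TPM values that sum to 1000000 per embryo. The build Zv9 and the tools RSEM 1.2.18, Bowtie 1.1.1 and CASAVA 1.8.2 are named in the submitters' processing notes without a role. The library kit marks no strand. RSEM shares reads between similar genes by likelihood, so close paralogs such as adam10a and adam10b carry that uncertainty.

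Mutants were compared with siblings across all genes by edgeR 4.0.16 (quasi-likelihood, TMM, filterByExpr, Benjamini-Hochberg at 0.05) in R 4.3.3. The filter left 12301 genes. CPM used TMM library sizes, and log2 CPM a prior count of 1. Alternatives used DESeq2 1.42.0, limma 3.58.1, other scalings and filters, the TPM values with pseudocounts of 1 and 0.1, a replicate block, and each embryo left out. Leaving out mutant 7 with sibling 3, and mutant 6 in DESeq2, was added after the data were seen. The tests were checked on simulated data. No pair of libraries within a group agreed within sampling noise (smallest chi-square per degree of freedom 7.79). Members and lists were chosen with earlier results of these data known. The named genes were the members with an unadjusted p under 0.05, a call, or the highest or lowest TPM or change in their family, and in each list up to 4 genes of lowest p. In the gene table of the assembly GRCz12tu, used for names alone, 20 members matched a symbol and 1 a synonym. Figures were drawn with matplotlib 3.10.9.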

Additional observations from a re-analysis of the deposited data

Results flagged for a closer look

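Within each group, the highest or lowest embryo of each gene was compared with its nearest neighbour by Dixon's gap over the range. Chance flags about 1 in 20 independent groups, and 5 of 42 groups stood out, 4 of them through mutant 6. This comparison was not run over all genes, so their share of flags is not known. Mutant 6 was the highest or lowest embryo in 34.5% of all genes, and genes of the same library are not independent. The rate of 1 in 20 is therefore not a background for the 4 flags, which cannot be read as a trait of these genes. Among the mutants, mutant 6 stood apart for adamts3 at 23.9 CPM, for pappaa at 9.57 CPM and for mmp2 at 461 CPM, each as the highest embryo. It stood apart for adamts10 at 4.25 CPM as the lowest. Among the siblings, sibling 7 stood apart for timp2b as the lowest, at 7.23 CPM.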

How the results depend on the processing

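All values are log2 fold changes of mutants over siblings or counts of genes with an adjusted p under 0.05. The 0 genes called by edgeR over 11 embryos became 44 with DESeq2, 2 with limma-voom, 32 with sample weights, 79 with DESeq2 without mutant 6 and 71 with DESeq2 without mutant 7 and sibling 3. Leaving out 1 embryo gave 0 to 24. Of the 21 genes, 1 was called by DESeq2, 1 with sample weights, 2 by DESeq2 without mutant 6 and 1 by DESeq2 without mutant 7 and sibling 3, and leaving out 1 embryo gave 0 to 1. The direction of adamts3 and pappaa held under all 25 alternatives. For adamts3, sample weights gave −1.32 and DESeq2 without mutant 6 gave −1.30, both called, and leaving out 1 embryo gave −1.31 to −0.80. Sample weights count libraries that depart from their group less, and the weight of mutant 6 is not given here. The call with weights is therefore not taken as support separate from leaving out mutant 6. For pappaa, DESeq2 gave 1.07 over 11 embryos, 0.85 without mutant 6 and 1.07 without mutant 7 and sibling 3, all called, and leaving out 1 embryo gave 0.84 to 1.16.

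The replicate numbers 3, 4 and 7 occur in both groups, but the deviations of same-numbered embryos correlated at −0.31, −0.20 and −0.14 across genes, so the numbers were not taken as pairs. With the replicate block over these 6 embryos edgeR called 0 genes, with adamts3 at −1.11 and pappaa at 0.88. In this fit the direction turned for adam10b (−0.064), adam8a (0.14), adam9 (0.084), adamts10 (0.20), mmp13a (−0.16), mmp2 (−0.18) and mmp30 (−0.13), none of them called. The fit also leaves out mutant 6 and other embryos, so these turns cannot be assigned to the block.

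Other turns of direction were all in genes not called. DESeq2 without mutant 6 turned adam8a (0.0055), adam9 (0.047), adamts10 (0.071), mmp14a (−0.020), mmp2 (−0.018), mmp30 (−0.059), mmp9 (0.044) and pappab (−0.0070). Without mutant 7 and sibling 3, edgeR and DESeq2 turned mmp14a (−0.031 and −0.033) and timp2a (0.047 and 0.044). Sample weights turned mmp14a (−0.046), mmp30 (−0.072), pappab (−0.11) and timp2a (0.0012). For adam8a, upper quartile scaling gave 0.0019, total counts 0.017, and TPM 0.020 with a pseudocount of 1, with or without a filter, and 0.023 with 0.1. Leaving out 1 embryo gave ranges that include 0 for adam10a (−0.097 to 0.0098), adam28 (−0.37 to 0.010), adam8a (−0.050 to 0.028), adam9 (−0.14 to 0.045), adamts10 (−0.12 to 0.070), adamts15a (−0.23 to 0.11), mmp14a (−0.035 to 0.093), mmp2 (−0.021 to 0.58), mmp30 (−0.071 to 0.29), mmp9 (−0.18 to 0.041), pappab (−0.018 to 0.27) and timp2a (−0.081 to 0.024). The cause of these changes was not tested. Leaving out 1 embryo kept the sign but moved the size by over 1.5 times for adam10b (0.0065 to 0.158), adam17a (0.056 to 0.12), mmp14b (0.047 to 0.11), mmp13a (0.063 to 0.49), mmp23bb (0.032 to 0.25) and timp2b (−0.26 to −0.10). Depth alone did not order the precision: the standard errors of mmp2 and mmp30, which have higher counts, exceeded that of pappaa.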

Other observations

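The later gene table lists 72 genes whose symbols match the families. Of these, 50 had no row in the counts analysed here by symbol, synonym or gene ID. Orders within a family therefore cover only its genes with a row. In the counts, 1 further row belongs to the families under another name. This row, zgc:174164, is a synonym of adam9b there. Mutants had 18.5 ± 4.4 CPM (SD, n = 6) of it and siblings 17.9 ± 3.1 CPM (SD, n = 5), which edgeR fitted as 0.05 ± 0.16 on the log2 scale (SE, adjusted p = 0.962).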
